A study of Takifugu fasciatus with 6 samples.

Results

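The Rab GTPases of the liver of T. fasciatus were taken as all genes whose Swiss-Prot protein name contains "Ras-related protein Rab". The rule found 76 of the 20990 genes in the deposited table. It uses names and no expression value, but it was chosen with earlier results of these data known. By their best Swiss-Prot match they fall into 36 Rab subfamilies. Only 4 of the 76 matches were to a bony fish protein, and both Rab-11B genes matched a protein of an electric ray, Diplobatis ommata. A name such as Rab-5C is thus that of the closest annotated protein and not an established orthologue. Several names occur more than once, and those genes are given with their identifiers. Reads of near-identical paralogs could have been divided between them in the authors' counting.

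Rab proteins are small GTPases that give each membrane compartment of the cell its identity. A Rab is prenylated, delivered to its membrane, switched on by a guanine nucleotide exchange factor (GEF) and switched off by a GTPase-activating protein (GAP). In its GTP-bound form it recruits effectors, among them motors, tethers and sorting proteins, which move, dock and fuse vesicles. In hepatocytes this traffic carries plasma proteins from the endoplasmic reticulum (ER) to the surface, takes up ligands through early endosomes, and returns receptors and transporters to the basolateral and bile canalicular membranes.

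Liver RNA was compared in 6 libraries, each from the pooled livers of 6 juvenile fish, and all fish had been kept at 26 °C for 2 weeks. The control group (CG: G1, G2, G3) stayed at 26 °C. The experimental group (EG: Ga, Gb, Gc) was cooled in steps, with a pause of 12 h at 19 °C, and was then held at 12 °C for 24 h, so that the comparison asks which Rab transcripts differ after a day in the cold. Only 2 temperatures and 1 time were sampled, each library is a pool, and p-values measure the spread between pools. The fish were held in 6 aquaria that appear to match the 6 libraries, so differences between pools and between aquaria cannot be told apart.

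The libraries held 31150888 to 45548824 counts. The 15 hepatocyte marker genes summed to 214000 to 242000 CPM (counts relative to the TMM-adjusted library size) in CG and to 260000 to 318000 in EG, the highest sum of the 7 marker lists, and 8 of the 15 rose. The TMM factors were 1.0976 to 1.1465 in CG and 0.8238 to 0.9724 in EG. The separation of these sums depends on that scaling, since relative to library totals the groups overlap. Some markers of other cell types fell. The 8 leukocyte marker genes summed to 33.8 to 56.2 CPM in CG and 14.7 to 31.2 in EG, with lcp1 and CORO1A lower among 6 tested, and the 5 erythrocyte genes to 3990 to 10400 and 1980 to 4120 CPM, with 2 lower. The 15 endothelial and stellate cell genes summed to 1200 to 1590 CPM in CG and 774 to 1410 in EG, with 2 of 12 tested lower, the 9 biliary and gut epithelium genes to 47.7 to 54.3 and 29.6 to 36.1, with 1 of 4 lower, and the 14 neural and endocrine genes to 47.0 to 75.0 and 61.1 to 176, with Eno2 higher and Stx1a lower of 4. KRT19, ELAVL4 and 1 gene each named CDX1, Fabp2, Stmn2, DES and Col1a2 had no count. The 15 exocrine pancreas genes ranged widely within both groups, from 5460 to 23600 CPM in CG and from 569 (Gb) to 20800 in EG, and of 10 tested none passed in edgeR, also at an unadjusted p under 0.05 (0), against 1 rise in DESeq2. In bulk tissue, fewer cells of a type and less RNA per cell cannot be told apart, and the part of these cell types in the Rab results was not tested.

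Rab genes changed in both directions in EG. Of the 76 genes, 60 were abundant enough for edgeR's quasi-likelihood test, which was run on 14357 genes in all with Benjamini-Hochberg adjustment. At an adjusted p under 0.05, 16 of the 60 Rab genes (26.7%) rose, beside 23.7% of all tested genes. A further 13 (21.7%) fell, beside 21.7% of all tested genes. By over 2-fold, 8 (13.3%) rose, beside 13.7%, and 9 (15%) fell, beside 15.4%. The shares were thus close to those of all tested genes. The 29 changed genes belong to 20 subfamilies. The median log2 fold change was 0.15 for the Rab genes and -0.03 for all tested genes.

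By CPM with TMM factors, all EG libraries lay above all CG libraries in 18 of the 60 genes (30%), beside 29% of all tested genes. In 13 (21.7%) they lay below, beside 28.8%. In each of the 29 changed genes the groups did not overlap on this scale. Relative to library totals they did overlap for Rab-1A fugu_GLEAN_10012318, Rab-25 and Rab-35 fugu_GLEAN_10014504. The other 31 genes had log2 fold changes from -0.56 to 0.72. The standard error (SE, from the fold change and the F statistic) had a median of 0.60 for the 15 genes with a mean of at most 2 FPKM (fragments scaled by gene length and library total) and of 0.19 for the 25 above 10 FPKM, so that smaller differences were not detectable in the scarce members. Calls went with level in all genes. Above the median of 4.95 FPKM, 44.4% of 36 Rab genes rose and 13.9% fell, beside 35.1% and 19.3% of all tested genes. At or below it, 0% of 24 rose and 33.3% fell, beside 12.3% and 24.1%. The mean FPKM that set these bands, for all tested genes, includes EG, so that the split itself favours rises above and falls below. Rab-24, which rose, averaged 3.28 FPKM in CG and was above the line only through EG. Rab-4B, Rab-19 (fugu_GLEAN_10017551) and Rab-40C (fugu_GLEAN_10018577), which fell, averaged 7.01, 7.13 and 5.22 FPKM in CG and were below it only through EG.

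Scaling affects the small rises. With library totals in place of TMM the median of all tested genes moved from -0.03 to -0.37 and that of the Rab genes from 0.15 to -0.18, so that the Rab median lay 0.18 above that of all genes with TMM and 0.19 above it with totals. The split of calls was then 9 higher and 14 lower (39.1% of calls higher, against 55.2%). The 7 calls lost were rises of at most 0.83 on the log2 scale: Rab-1A (fugu_GLEAN_10012318), Rab-5A, Rab-5C (fugu_GLEAN_10017056), Rab-7A (fugu_GLEAN_10016317), Rab-11A (fugu_GLEAN_10015465), Rab-18-B and Rab-35 (fugu_GLEAN_10014504), with adjusted p from 0.0549 to 0.443. Without Gb, the library low in exocrine pancreas genes, 15 of 62 tested Rab genes rose and 10 fell. Of all 14790 genes tested in that fit, 3141 rose and 2970 fell.

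**Figure D1:**
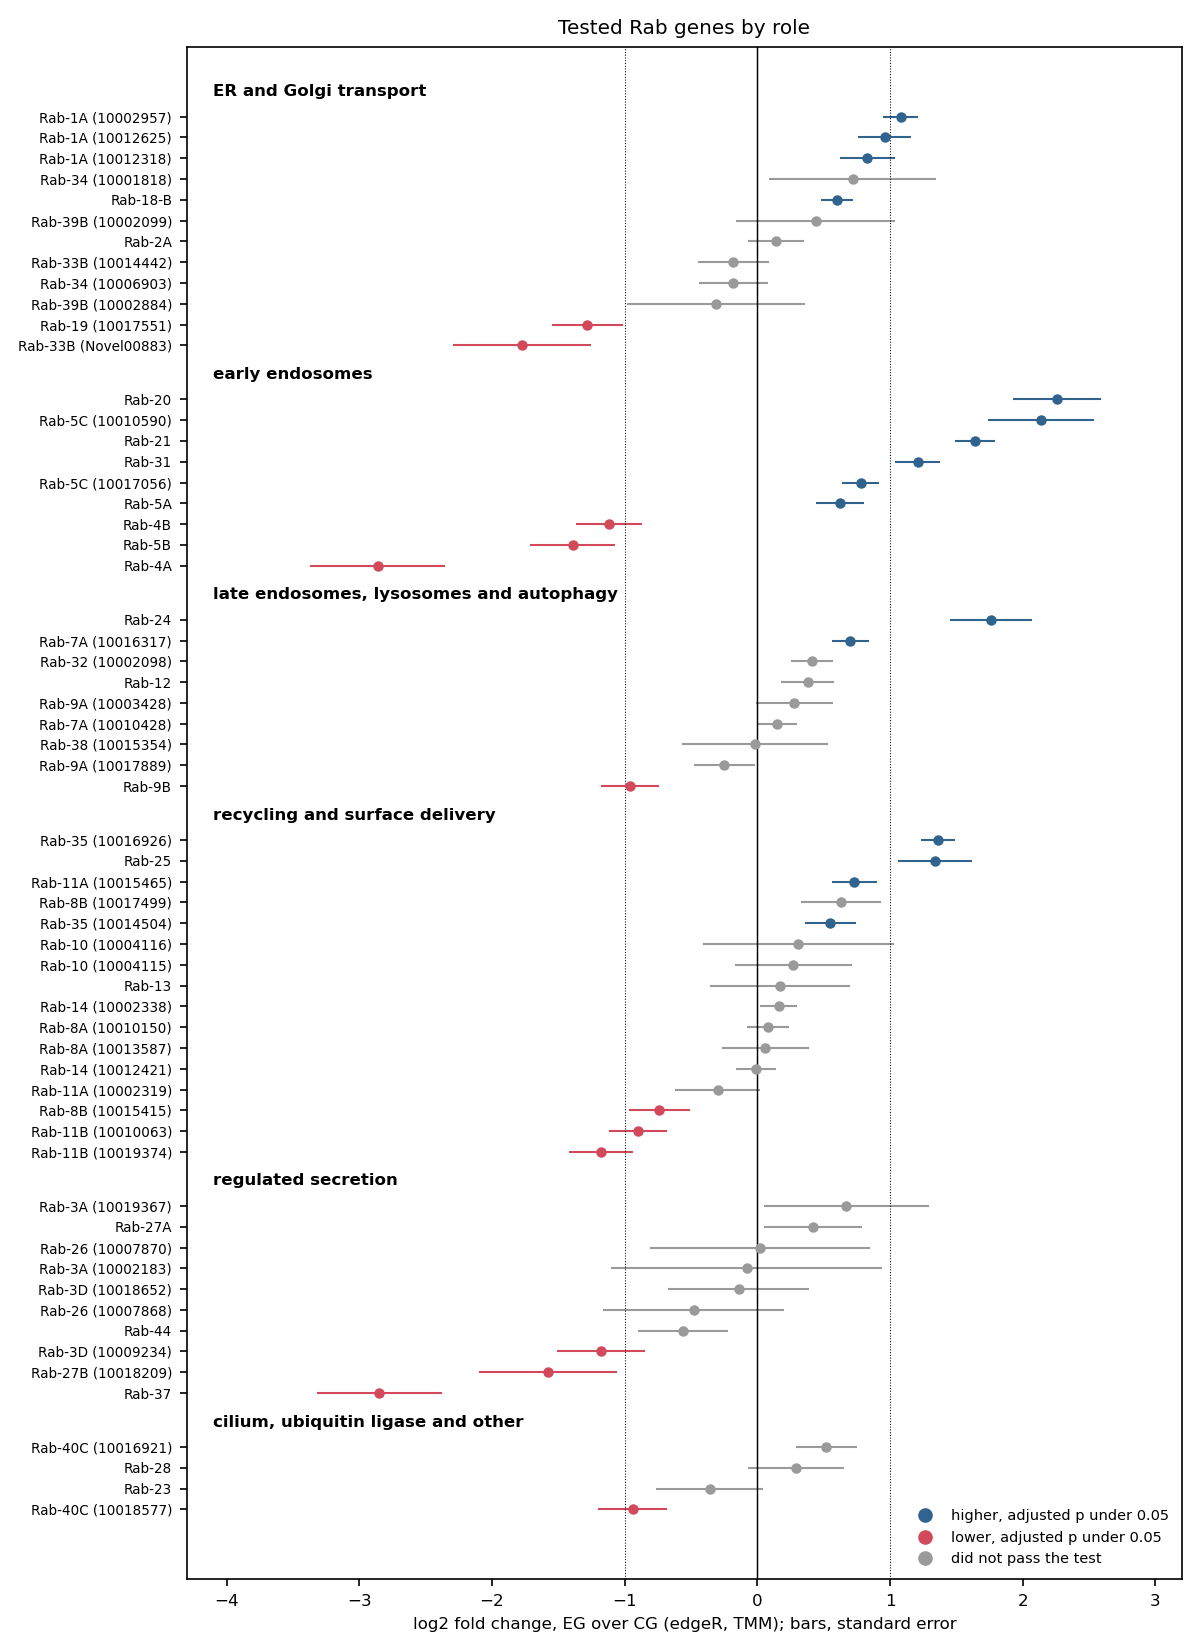
Log2 fold change of EG over CG (x axis) for the 60 tested Rab genes, ordered within 6 roles; bars are standard errors and colours give the edgeR call at an adjusted p under 0.05. Figures in brackets are the end of the gene identifier, and dotted lines mark a 2-fold difference. All 9 early endosome genes passed the test with TMM scaling, 6 higher and 3 lower, and no regulated secretion gene rose. Over all tested genes 23.7% were higher and 21.7% lower.

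All 9 early endosome Rabs passed the test with TMM scaling, 6 higher and 3 lower, beside 23.7% and 21.7% of all tested genes. With library totals 2 of the 6 rises, those of Rab-5A and Rab-5C fugu_GLEAN_10017056, lost their call, and the roles were assigned with earlier results of these data known. Rab-20, found on endosomes and phagosomes, had 28.9, 26.4 and 35.0 CPM in CG and 222, 120 and 90.5 in EG. The difference was 2.26 ± 0.33 on the log2 scale (SE, n = 3 and 3 pools, edgeR adjusted p = 0.00114), a 4.80-fold rise. Every EG library was above every CG library, with Ga the highest. The gene lies on scaffold 95 of the authors' unpublished genome, bases 90038 to 92928.

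Rab-5C, one of the Rab5 isoforms that drive fusion of endocytic vesicles with early endosomes, was represented by 2 genes that both rose. The gene fugu_GLEAN_10010590 (scaffold 143, 1703498 to 1718785) had 78.4, 49.9 and 59.9 CPM in CG and 466, 159 and 204 in EG, a log2 fold change of 2.14 ± 0.40 (edgeR adjusted p = 0.00373). The rise was carried unevenly, since Ga had 466 CPM and no other EG library over 204, and without Ga the log2 fold change was 1.54 (adjusted p = 0.00258). The other gene, fugu_GLEAN_10017056 (scaffold 101, 2367426 to 2369477), had 34.4, 32.7 and 35.7 CPM in CG and 62.9, 62.4 and 51.3 in EG (log2 0.78 ± 0.14, edgeR adjusted p = 0.00305). Its libraries were close together within each group.

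Rab-21, which acts in the endocytosis of integrins, rose with little spread. It had 20.6, 20.7 and 24.2 CPM in CG and 75.6, 64.6 and 64.0 in EG (log2 1.64 ± 0.15, edgeR adjusted p = 0.000153). Its model of 363 bases, short beside the family's median of 658, may be partial, and its FPKM depends on that length. Rab-31, a relative of Rab22 that works between the trans-Golgi network and endosomes, had 10.3, 12.6 and 14 CPM in CG and 29.8, 31.1 and 24.7 in EG (log2 1.21 ± 0.17, edgeR adjusted p = 0.000993). Rab-5A rose least of the 6, with 12.8, 15.2 and 15.1 CPM in CG and 27.1, 18.8 and 20.4 in EG (log2 0.62 ± 0.18, edgeR adjusted p = 0.0230). It lost its call without G1, G2, G3 or Ga (adjusted p 0.0914, 0.0528, 0.0554 and 0.0546).

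The 3 early endosome genes that fell were scarce. Rab-4A, which returns cargo rapidly from early endosomes to the surface, had 2.27, 2.11 and 2.80 CPM in CG and 0.320, 0.127 and 0.526 in EG, from 91 to 100 counts and 4 to 18 counts per library. Its log2 fold change of -2.86 ± 0.51 (edgeR adjusted p = 0.00295) was one of the 2 deepest falls in the family, beside that of Rab-37. Rab-4B, its paralog, had 4.15, 4.07 and 4.40 CPM in CG and 2.21, 2.03 and 1.55 in EG (log2 -1.12 ± 0.25, edgeR adjusted p = 0.00757). Rab-5B went against the other Rab5 genes, with 2.34, 3.07 and 3.70 CPM in CG and 1.36, 1.21 and 0.906 in EG (log2 -1.39 ± 0.32, edgeR adjusted p = 0.00975).

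**Figure D2:**
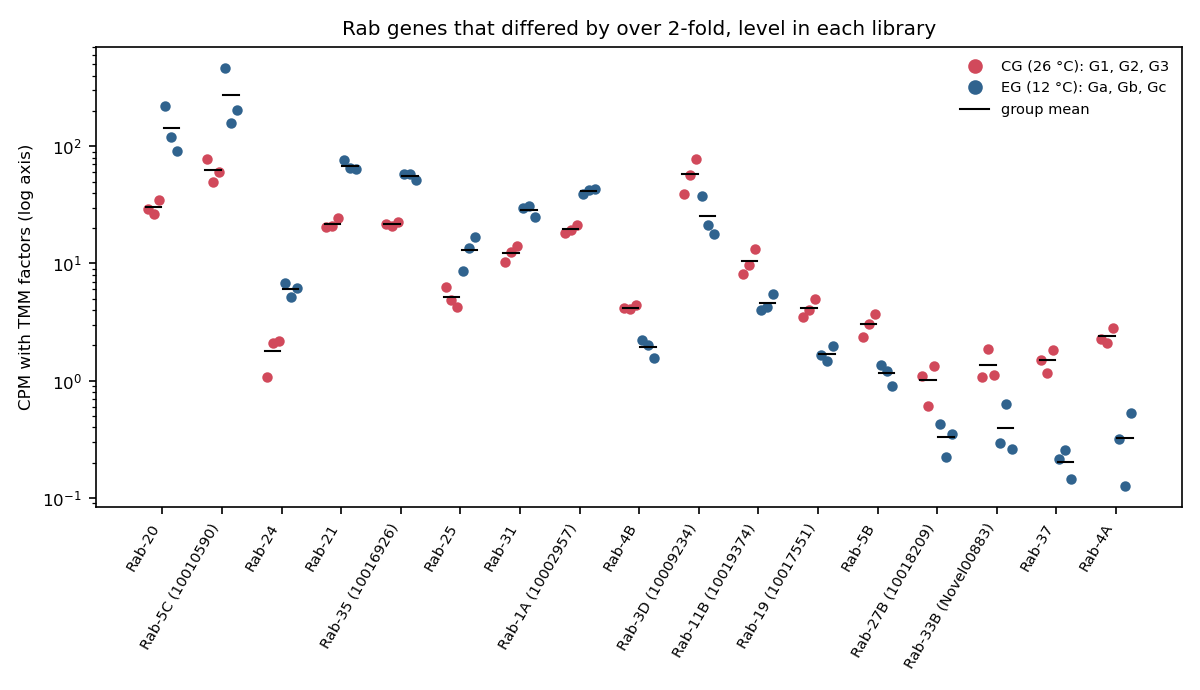
Level of the 17 Rab genes that differed by over 2-fold, in CPM with TMM factors on a log axis; each point is 1 library and each black bar a group mean. Rab-20 reached 90.5 to 222 CPM in EG against 26.4 to 35.0 in CG, and in every gene shown the groups did not overlap.

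The make-up of the family by role was compared per length. The summed FPKM of all Rab genes was 937, 872 and 1020 in CG and 1600, 1360 and 1170 in EG. The early endosome genes summed to 313, 272 and 331 FPKM in CG and 973, 663 and 581 in EG, while the late endosome and lysosome genes summed to 230 ± 26.5 in CG and 233 ± 19.6 in EG (SD, n = 3). Early endosome genes made up 33.4, 31.2 and 32.5% of Rab FPKM in CG and 60.7, 48.7 and 49.5% in EG. Rab5 genes contributed 16.7% ± 1.63 and 25.6% ± 6.01, Rab20 4.63% ± 0.419 and 11.5% ± 3.04, and Rab21 7.18% ± 0.327 and 12.2% ± 1.30. Rab4 contributed less, 1.19% ± 0.0317 in CG and 0.219% ± 0.0212 in EG, as did the regulated secretion genes, 4.07% ± 0.611 and 1.28% ± 0.0936. Lower shares were not particular to these. Late endosome and lysosome genes took 24.3% ± 0.943 and 17.0% ± 1.84, although their summed FPKM hardly differed. Recycling and surface delivery genes took 18.7% ± 0.856 and 12.0% ± 1.64, and the group of other roles 2.08% ± 0.31 and 1.24% ± 0.343. In each of these shares the groups did not overlap. The exact two-sided permutation test gave p = 0.1 for each, the smallest that 3 against 3 libraries allow. For ER and Golgi genes, 18.4% ± 1.0 and 15.5% ± 2.88, the groups overlapped. The role shares divide a common total, so a larger early endosome share lowers the sum of the others.

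**Figure D3:**
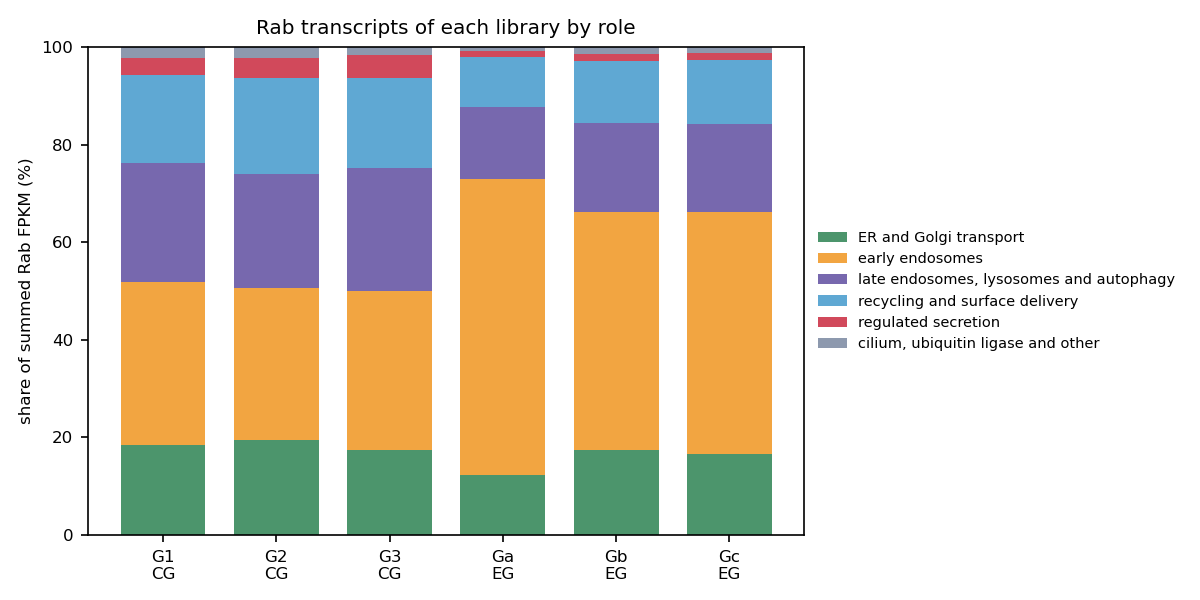
Share of the summed FPKM of all 76 Rab genes (y axis, %) taken by each of 6 roles in each library (x axis). Early endosome genes take 31.2 to 33.4% in CG and 48.7 to 60.7% in EG.

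Among the Rabs of the ER and Golgi, 4 of 12 tested genes rose, 2 fell and 6 did not pass, of 18 members. Over all tested genes 23.7% rose and 21.7% fell. All 3 genes named Rab-1A, the Rab of the step from ER to Golgi, were higher. The most abundant per length, fugu_GLEAN_10002957 (scaffold 169, 393200 to 395485), had 18.1, 19.3 and 21.4 CPM in CG and 39.4, 42.0 and 43.4 in EG (log2 1.08 ± 0.13, edgeR adjusted p = 0.000574). In fugu_GLEAN_10012625 the levels were 7.99, 7.48 and 6.61 CPM in CG and 17.8, 14.1 and 11.3 in EG (log2 0.96 ± 0.20, edgeR adjusted p = 0.00617). The third, fugu_GLEAN_10012318, had 38.6, 34.3 and 32.3 CPM in CG and 69.1, 74.0 and 44.0 in EG (log2 0.83 ± 0.21, edgeR adjusted p = 0.0133). Its length of 2061 bases is well above the family's median of 658, so that it may hold more than a Rab, and without G3 its adjusted p was 0.0505.

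Rab-18-B, of the ER and lipid droplets, was among the most even members within groups, with 30.3, 29.7 and 31.4 CPM in CG and 44.2, 48.3 and 45.6 in EG (log2 0.60 ± 0.12, edgeR adjusted p = 0.00574). With library totals its log2 fold change was 0.26 (edgeR adjusted p = 0.204), and Rab-1A fugu_GLEAN_10012318 also lost its call. Rab-2A, which acts between the Golgi and the ER, had 10.4, 9.90 and 7.5 CPM in CG and 12.1, 10.5 and 8.07 in EG (log2 0.14 ± 0.21, edgeR adjusted p = 0.614), with overlapping groups. The members that fell were low. Rab-19 (fugu_GLEAN_10017551) had 3.48, 3.97 and 4.96 CPM in CG and 1.65, 1.46 and 1.99 in EG (log2 -1.28 ± 0.27, edgeR adjusted p = 0.00605). One of 3 genes named Rab-33B, a Golgi Rab that also binds the autophagy factor ATG16L1, had 1.07, 1.86 and 1.12 CPM in CG and 0.293, 0.635 and 0.263 in EG (Novel00883, log2 -1.77 ± 0.52, edgeR adjusted p = 0.0243). Without G2, Ga or Gc its adjusted p was 0.106, 0.0694 and 0.0680. The 2 tested Rab-34 genes, the 2 tested Rab-39B genes and a second Rab-33B gene did not pass.

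Of the Rabs of late endosomes, lysosomes and autophagy, 2 of 9 tested genes rose, 1 fell and 6 did not pass, of 11 members. Over all tested genes 23.7% rose and 21.7% fell. Rab-24, which takes part in autophagy, was scarce in CG at 1.07, 2.09 and 2.18 CPM and reached 6.77, 5.14 and 6.23 in EG (log2 1.76 ± 0.31, edgeR adjusted p = 0.00284). Rab-7A, which directs late endosomes to lysosomes, had 2 genes. In fugu_GLEAN_10016317 the level was 15.8, 14.8 and 15.0 CPM in CG and 25.7, 26.6 and 21.6 in EG (log2 0.70 ± 0.14, edgeR adjusted p = 0.00505). The other, fugu_GLEAN_10010428, a model of 2031 bases, had 17.4, 17.5 and 18.9 CPM in CG and 21.8, 21.3 and 16.5 in EG (log2 0.15 ± 0.15, edgeR adjusted p = 0.460), with overlapping groups.

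Rab9 proteins return receptors from late endosomes to the trans-Golgi network. Rab-9B fell, with 10, 10.9 and 10.1 CPM in CG and 4.32, 4.73 and 6.84 in EG (log2 -0.96 ± 0.22, edgeR adjusted p = 0.00811). Of the 2 genes named Rab-9A, fugu_GLEAN_10003428 had 3.72, 3.09 and 3.36 CPM in CG and 5.70, 2.86 and 3.77 in EG (log2 0.28 ± 0.29), and fugu_GLEAN_10017889 had 5.80, 5.16 and 6.02 and then 4.98, 5.78 and 3.51 (log2 -0.25 ± 0.23). Neither passed. Rab-32 (fugu_GLEAN_10002098), which serves lysosome-related organelles such as melanosomes and also binds mitochondria, ranked second in the family at a mean of 144 FPKM. It had 82.0, 73.1 and 95.4 CPM in CG and 127, 104 and 101 in EG, and missed the threshold (log2 0.41 ± 0.16, edgeR adjusted p = 0.0755). The groups did not overlap in CPM with TMM factors, but they did in FPKM (139, 121 and 164 in CG, 157, 152 and 133 in EG).

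Of the Rabs of recycling endosomes and surface delivery, 4 of 16 tested genes rose, 3 fell and 9 did not pass, of 21 members. Over all tested genes 23.7% rose and 21.7% fell. The Rab11 subfamily, which marks recycling endosomes and in hepatocytes serves the apical route to the canaliculus, divided by isoform with TMM scaling. Rab-11A (fugu_GLEAN_10015465) had 8.78, 8.04 and 8.01 CPM in CG and 16.1, 12.3 and 13.0 in EG (log2 0.73 ± 0.17, edgeR adjusted p = 0.00859). Both Rab-11B genes fell: fugu_GLEAN_10010063 from 5.58, 7.23 and 7.25 CPM to 3.30, 4.19 and 3.25 (log2 -0.90 ± 0.22, edgeR adjusted p = 0.0110), and fugu_GLEAN_10019374 from 8.18, 9.69 and 13.3 CPM to 4, 4.22 and 5.53 (log2 -1.18 ± 0.24, edgeR adjusted p = 0.00545). A second Rab-11A gene, fugu_GLEAN_10002319, had 2.08, 2.18 and 2.07 CPM in CG and 1.44, 2.29 and 1.43 in EG (log2 -0.30 ± 0.32, edgeR adjusted p = 0.475).

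Rab-25, the epithelial relative of Rab11, rose from 6.25, 4.86 and 4.26 CPM to 8.58, 13.5 and 16.9 (log2 1.34 ± 0.28, edgeR adjusted p = 0.00574). Both genes named Rab-35, a Rab of fast recycling at the plasma membrane, were higher. In fugu_GLEAN_10016926 the level was 21.5, 20.8 and 22.7 CPM in CG and 58.5, 57.8 and 51.1 in EG (log2 1.36 ± 0.13, edgeR adjusted p = 0.000197). This model is the longest of the family at 3729 bases and may hold more than a Rab. In fugu_GLEAN_10014504 it was 7.68, 10.7 and 10.6 and then 12.6, 15.8 and 13.9 CPM (log2 0.55 ± 0.19, edgeR adjusted p = 0.0439). The latter had the highest adjusted p of the 29 calls, which was lost without any 1 library other than Ga (adjusted p 0.0706 to 0.145).

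Rab8 and Rab10 carry vesicles from the Golgi and endosomes to the surface, and most of their genes did not pass. Rab-8A had 21.8, 28.0 and 20.6 CPM in CG and 27.2, 24.4 and 22.7 in EG for fugu_GLEAN_10010150 (log2 0.08 ± 0.16), and 7.85, 5.48 and 7.95 and then 11.5, 5.40 and 5.23 for fugu_GLEAN_10013587 (log2 0.06 ± 0.33). Rab-8B was represented by 2 genes with opposite signs. The gene fugu_GLEAN_10015415 fell from 6.32, 5.67 and 5.52 CPM to 4.29, 2.79 and 3.39 (log2 -0.74 ± 0.23, edgeR adjusted p = 0.0297), a call lost without G1, G2, G3, Gb or Gc (adjusted p 0.0601 to 0.106), and fugu_GLEAN_10017499 did not pass (log2 0.63 ± 0.30, edgeR adjusted p = 0.128).

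Rab-10 was matched by 3 short models of 300, 402 and 339 bases that follow one another on scaffold 53 with gaps of 2335 and 10663 bases, so that they may be pieces of 1 gene. The first 2 had 1.60, 0.837 and 2.21 CPM in CG and 2.53, 1.49 and 1.58 in EG (fugu_GLEAN_10004115, log2 0.27 ± 0.44), and 0.262, 0.279 and 0.140 and then 0.293, 0.476 and 0.0877 (fugu_GLEAN_10004116, log2 0.31 ± 0.72). Rab-14, which works between endosomes and the Golgi, was also a pair that did not pass: fugu_GLEAN_10002338 had 10.2, 10.7 and 11.7 CPM in CG and 11.7, 12.4 and 12.3 in EG (log2 0.16 ± 0.14), and fugu_GLEAN_10012421 had 10.4, 9.57 and 10.3 and then 10.7, 10 and 9.30 (log2 -0.01 ± 0.15). The edgeR adjusted p values of this pair were 0.413 and 0.974. Rab-13, a Rab of tight junctions, also did not pass (log2 0.17 ± 0.53).

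Among the Rabs of regulated secretion, which dock secretory granules, 3 of 10 tested genes fell and 7 did not pass, of 13 members, and the share that fell was close to the 21.7% of all tested genes. None rose, either in edgeR at an unadjusted p under 0.05 (0 of 10) or in DESeq2 (0), while 23.7% of all tested genes rose at an adjusted p under 0.05. All but Rab-3D fugu_GLEAN_10009234 lay at or below the median of all tested genes, 4.95 FPKM. In that range 12.3% of all tested genes and 0 of 24 tested Rab genes of any role rose. The range was set by a mean that includes EG, which moves rises out of it. Rab-24 rose and left the range only in this way, with 3.28 FPKM in CG. The summed level of the 8 leukocyte genes was lower in EG (33.8 to 56.2 CPM in CG, 14.7 to 31.2 in EG), with 2 of 6 tested genes past the threshold, and its part in these falls was not tested. Rab-37, known from secretory granules of mast cells and pancreatic islets, had 1.5, 1.16 and 1.82 CPM in CG and 0.213, 0.254 and 0.146 in EG, from 50 to 65 and 5 to 8 counts per library (log2 -2.85 ± 0.47, edgeR adjusted p = 0.00193). Rab-27B (fugu_GLEAN_10018209), which docks granules and exosome-bearing bodies, had 1.10, 0.604 and 1.32 CPM in CG and 0.426, 0.222 and 0.351 in EG (log2 -1.58 ± 0.52, edgeR adjusted p = 0.0374), and lost its call without any 1 library other than G2 (adjusted p 0.0558 to 0.131). Rab-27A did not pass at 1.36, 0.953 and 1.68 CPM in CG and 1.39, 2.19 and 1.78 in EG (log2 0.42 ± 0.37, edgeR adjusted p = 0.376).

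Rab-3D (fugu_GLEAN_10009234), the most abundant member of the secretion group at a mean of 15.1 FPKM and a Rab of zymogen granules in mammals, had 39.3, 56.5 and 77.7 CPM in CG and 37.3, 21.2 and 18 in EG (log2 -1.18 ± 0.33, edgeR adjusted p = 0.0206). The lowest CG and the highest EG library were close, the call was lost without G3, Gb or Gc (adjusted p 0.0720, 0.0621 and 0.0649), and the model of 2889 bases may hold more than a Rab. The exocrine pancreas genes summed to 17000, 23600 and 5460 CPM in CG and 15900, 569 and 20800 in EG. The 2 tested Rab-26 genes, Rabs of exocrine granules in mammals, were scarce. In fugu_GLEAN_10007870 the level was 0.525, 0.790 and 0.308 CPM in CG and 0.506, 0.0635 and 1.08 in EG, lowest in Gb and next in G3. In fugu_GLEAN_10007868 it was 0.978, 1.05 and 0.420 and then 0.453, 0.190 and 1.11 CPM, with the same 2 libraries lowest. Neither passed the test (log2 0.02 ± 0.83 and -0.48 ± 0.68), and the part of pancreatic tissue in these levels was not tested.

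In the remaining group, 1 of 4 tested genes fell, beside 21.7% of all tested genes. Rab-40C (fugu_GLEAN_10018577), a Rab with a SOCS box that joins a ubiquitin ligase, had 3.46, 4.51 and 4.2 CPM in CG and 1.87, 2.54 and 1.93 in EG (log2 -0.94 ± 0.26, edgeR adjusted p = 0.0182), and its adjusted p was 0.0730 without G2 and 0.0563 without G3. Its paralog fugu_GLEAN_10016921 did not pass (log2 0.52 ± 0.23, edgeR adjusted p = 0.0983), nor did Rab-23, a cilium Rab of the Hedgehog pathway, or Rab-28. The 16 genes that were not tested had at most 14 counts in any library, among them both Rab-15 genes, Rab-3C, Rab-17 and Rab-6B, and 4 had no count at all.

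The 5 genes with the highest mean over all libraries, EG included, were Rab-5C (fugu_GLEAN_10010590, 165 FPKM), Rab-32 (144), Rab-21 (117), Rab-20 (104) and the other Rab-5C (68.7). Because EG entered this mean, genes that rose were favoured, and the number of rises among them has no weight. In CG alone Rab-20 averaged 43.9 FPKM, below the 55.4 of Rab-18-B.

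The balance between paralogs within subfamilies was also compared. In each library the share of each gene in the summed FPKM of its subfamily was taken for the 17 subfamilies with at least 2 tested members, which does not depend on scaling between libraries. Of 44 shares, 23 in 11 subfamilies did not overlap between groups. By level, the groups were fully separated with EG higher in 29% of the tested genes and with EG lower in 28.8%, so that the count does not set the paralog shares apart. The shares of a subfamily sum to 100%, and a rise in one is mirrored in the others. With 3 against 3 libraries the exact two-sided permutation test gave each of these p = 0.1, its smallest value, or 0.191 adjusted over the 44 shares, so that no single share passes a threshold of 0.05.

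In the Rab11 subfamily the shift was from Rab-11B to Rab-11A. Rab-11A (fugu_GLEAN_10015465) made up 40.4, 33.8 and 29.8% of Rab11 FPKM in CG and 68.8, 59.2 and 60.9% in EG. The Rab-11B gene fugu_GLEAN_10019374 went from 32.5, 35.1 and 42.7% to 14.8, 17.6 and 22.4%, and fugu_GLEAN_10010063 from 22.3, 26.4 and 23.5% to 12.3, 17.6 and 13.3%. A Rab-11B gene had the highest FPKM of the subfamily in G2 and G3, and Rab-11A in G1 and all EG libraries. Of the 17 subfamilies with at least 2 tested members, only Rab5 and Rab11 had members that passed the test in both directions with TMM scaling. In Rab11 the only rise, that of fugu_GLEAN_10015465, lost its call with library totals (edgeR adjusted p = 0.0974). It also did with limma on FPKM, which is scaled by the same library totals (limma adjusted p = 0.0577 and 0.0584).

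In Rab5, fugu_GLEAN_10010590 took 54.4, 42.8 and 45.6% in CG and 79.3, 58.9 and 67.8% in EG. The shares of Rab-5A (12.8% ± 2.40 to 7.02% ± 1.51) and of the other Rab-5C gene (37.2% ± 3.07 to 24.0% ± 8.77) were lower in EG although their levels were higher. Rab-4A went from 36.5, 35.3 and 40.1% of Rab4 FPKM to 13.2, 6.17 and 26.3%, and Rab-27A from 51.4, 51.3 and 51.8% of Rab27 to 76.1, 87.6 and 76.0%. Rab27 as a whole took 0.462% ± 0.101 of Rab FPKM in CG and 0.225% ± 0.0726 in EG.

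Further shares did not overlap between groups. The shorter Rab-7A gene moved from 73.4% ± 1.29 to 80.2% ± 0.827, Rab-9B from 53.2% ± 3.07 to 37.5% ± 10, Rab-35 fugu_GLEAN_10014504 from 74.6% ± 3.66 to 62.8% ± 3.19, and Rab-40C fugu_GLEAN_10018577 from 36.1% ± 8.01 to 16.6% ± 2.11. By contrast the 3 Rab-1A genes kept overlapping shares (52.0% ± 4.38 and 55.7% ± 6.97 for the leading one), as did the Rab-14 pair (52.5% ± 1.98 and 55.4% ± 2.38 for fugu_GLEAN_10002338). The sizes of the Rab-7A and Rab-35 shares depend on the long models of their partners, 2031 and 3729 bases. By mean CPM in CG the shorter Rab-7A gene lay below its partner (15.2 and 17.9), as did Rab-35 fugu_GLEAN_10014504 (9.66 and 21.7). In shares of CPM the Rab-7A difference between groups was 9.56 points, against 6.81 in FPKM.

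**Figure D4:**
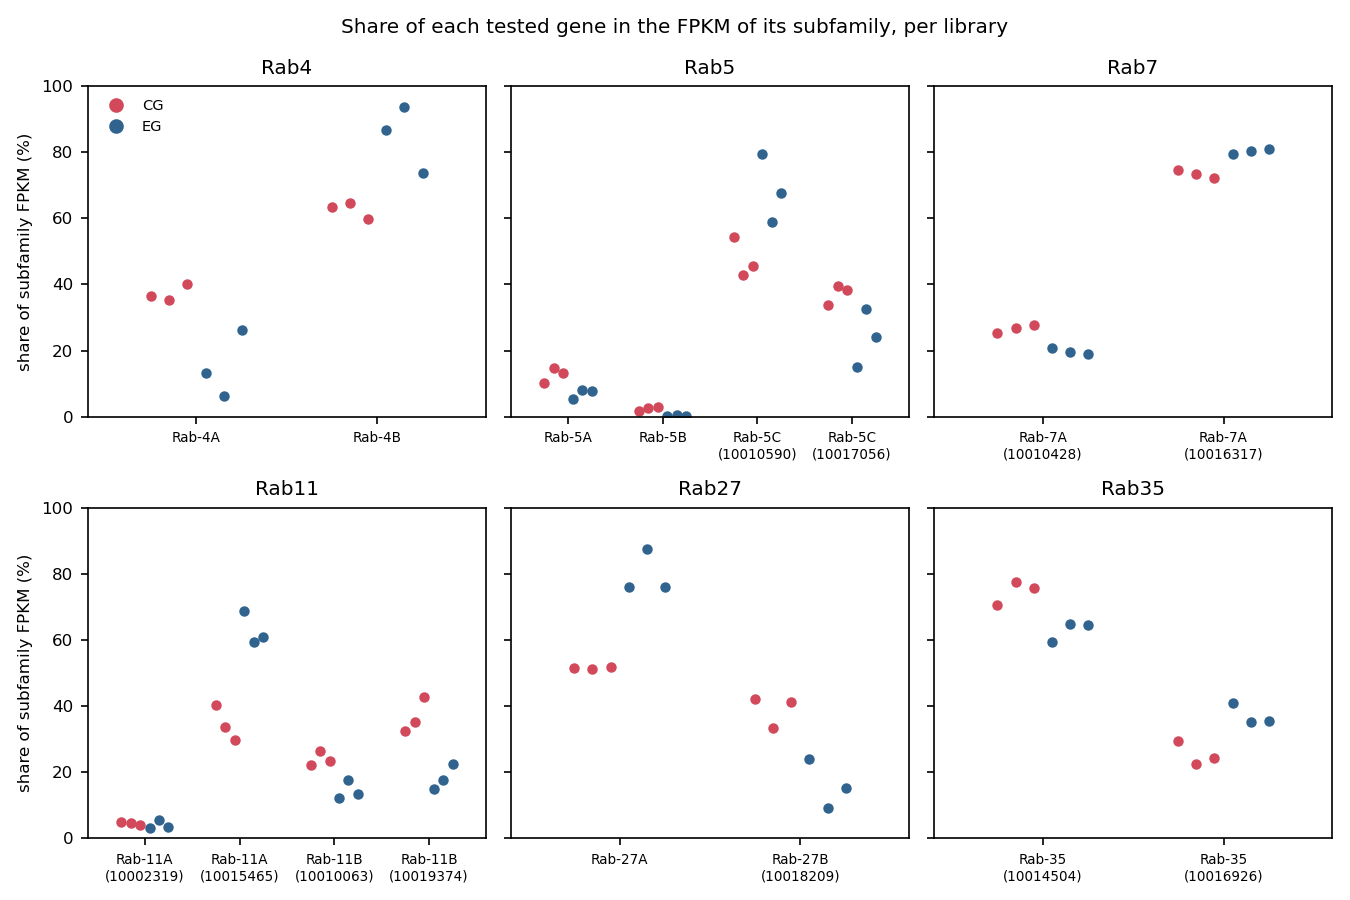
Share of each tested gene in the summed FPKM of its subfamily (y axis, %), 1 point per library, for 6 subfamilies. In Rab11, fugu_GLEAN_10015465 takes 29.8 to 40.4% in CG and 59.2 to 68.8% in EG, while both Rab-11B genes take less in every EG library than in any CG library.

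The proteins that act on Rabs were taken from 4 lists of 199 genes, of which 184 were tested. Together 37 rose (20.1%) and 40 fell (21.7%), close to the 23.7% and 21.7% of all tested genes. Of 7 tested genes for prenylation, delivery and extraction, 1 rose, 2 fell and 4 did not pass. GDI2 (fugu_GLEAN_10003531), the GDP dissociation inhibitor that lifts Rabs off membranes, rose from 42.0, 40.2 and 42.8 CPM to 83.8, 81.4 and 70.8 (log2 0.92 ± 0.13, edgeR adjusted p = 0.00119). A second GDI2 gene, fugu_GLEAN_10010359, did not pass (log2 -1.33 ± 0.95). PRAF2, a prenylated Rab acceptor relative, fell (log2 -2.14 ± 0.43) and was named after its values were seen. The escort protein Chm (log2 -0.52 ± 0.25) and RABGGTA (-0.21 ± 0.23) did not pass. Without Gb 4 genes of this list fell, while 2970 of all 14790 genes tested in that fit fell.

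Among 55 tested GEFs, 13 rose, 8 fell and 34 did not pass, with a median log2 fold change of 0.19, beside -0.03 for all tested genes, of which 23.7% rose and 21.7% fell. The balance turned with the scaling, since 7 rose and 15 fell with library totals and 7 and 14 with limma on FPKM. Dennd3 (fugu_GLEAN_10005544), in mammals a GEF of Rab12, had 6.16, 4.69 and 5.15 CPM in CG and 32.9, 32.9 and 9.33 in EG (log2 2.23 ± 0.44, edgeR adjusted p = 0.00461). A second Dennd3 gene, fugu_GLEAN_10011341, did not pass (log2 -1.05 ± 0.46). TRAPPC10, a subunit of the TRAPPII complex, rose by 1.5 ± 0.19 and HPS4, a subunit of the GEF of Rab32 and Rab38, had a log2 fold change of -1.48 ± 0.19. RABGEF1, also called Rabex-5 and a GEF of Rab5, was matched by 3 genes. The gene fugu_GLEAN_10008487 fell (log2 -1.25 ± 0.24, edgeR adjusted p = 0.00378) and fugu_GLEAN_10014712 rose (log2 1.08 ± 0.37, edgeR adjusted p = 0.0416). The third, fugu_GLEAN_10011461, did not pass (log2 0.21 ± 0.20, edgeR adjusted p = 0.412). The last 2 were named after their values were seen.

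Among 43 tested GAPs, 9 rose, 12 fell and 22 did not pass, with a median of -0.16, and 5 rose with library totals or limma. Over all tested genes 23.7% rose and 21.7% fell with TMM scaling. The rises over all 14357 genes numbered 3398 with TMM, 2024 with library totals and 1962 or 1970 with limma. TBC1D14, which binds Rab11 and acts in autophagosome formation, rose from 13.8, 13.5 and 11.9 CPM to 36.2, 36.8 and 28.0 (log2 1.37 ± 0.16, edgeR adjusted p = 0.000436). USP6NL (fugu_GLEAN_10019904), a GAP of Rab5 in mammalian cells, rose from 22.1, 18.3 and 18.8 CPM to 45.8, 50.4 and 53.7 (log2 1.34 ± 0.14, edgeR adjusted p = 0.000312). A second gene of that name, fugu_GLEAN_10017572, did not pass (log2 -0.89 ± 0.59, edgeR adjusted p = 0.254). The TBC-domain proteins EVI5 (log2 -1.59 ± 0.23) and TBC1D9 (-1.53 ± 0.24) fell, with edgeR adjusted p of 0.00122 and 0.00177.

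Among 79 tested effectors, 14 rose, 18 fell and 47 did not pass, with a median of -0.14, beside 23.7% higher and 21.7% lower of all tested genes. With library totals 28 fell, and with limma 7 or 8 rose. Over all 14357 tested genes 4514 fell with library totals, against 3113 with TMM, and 1962 or 1970 rose with limma, against 3398. MYO5A, a myosin motor that carries vesicles marked by Rab27A and Rab11, rose from 9.95, 10.1 and 8.40 CPM to 40.1, 34.0 and 33.2 (log2 1.92 ± 0.15, edgeR adjusted p = 0.000110). Optineurin (optn), a Rab8 effector, rose from 102, 98.0 and 93.3 CPM to 365, 315 and 283 (log2 1.72 ± 0.15, edgeR adjusted p = 0.000153). Ehbp1 (fugu_GLEAN_10004849), which links Rab8 and Rab10 to actin, fell from 32.8, 28.0 and 38.6 CPM to 13.9, 10 and 8.33 (log2 -1.62 ± 0.22, edgeR adjusted p = 0.000898), as did its relative EHBP1L1 (fugu_GLEAN_10004848, log2 -1.59 ± 0.22) and a second gene of that name (fugu_GLEAN_10012626, log2 -1.04 ± 0.25). A second EHBP1 gene, fugu_GLEAN_10013372, did not pass (log2 -0.21 ± 0.16). Without G1 the number of effectors that fell was 11, while over all tested genes 2219 fell, against 3113 with all libraries.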

How the data were processed

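Liver RNA was sequenced in 6 libraries (3 CG, 3 EG). The authors aligned the reads with HISAT2 2.0.4 to an unpublished T. fasciatus genome and normalised mapped reads with RSEM 1.2.3. The build, the annotation and the tool that counted the reads are not given in the sources used here. The deposited counts are raw whole numbers. The deposited FPKM are the authors' counts per gene length and library total (all Rab values lie within 0.1% of that ratio), and since 75 of the 76 Rab lengths are multiples of 3 the length is nearly a coding length. Group columns are the authors' mean FPKM. The authors' own fold changes, p-values and size-factor means, from DESeq, were not used.

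Counts were tested with edgeR 4.0.16 in R 4.3.3 (filterByExpr, TMM, quasi-likelihood F test, group as the only term, Benjamini-Hochberg adjustment over 14357 genes). SE is the absolute log2 fold change divided by the square root of F. The procedure was also run on simulated counts in which few genes changed, a setting that cannot test the choice of scaling. Alternatives were DESeq2 1.42.0, library totals, upper quartile and RLE factors, no filter, at least 1 CPM in 3 libraries, limma 3.58.1 on log2(FPKM + 1) and log2(FPKM + 0.1), leaving out each library, and, chosen after seeing the data, members of at most 1000 bases. Depth was 31150888 to 45548824 counts a library.

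Rab members, roles and lists were chosen with earlier results of these data known. Named with values in every library were members past the threshold and over 2-fold, the 5 with the highest mean FPKM, and a set of widely studied Rabs, whatever their values; other members that passed were added after their values were seen. Of each list the 2 largest rises and falls past the threshold with a mean of at least 5 CPM were named. Sequences and the KEGG and GO columns were not used here. Values of 1 gene of the lists of Rab regulators are not reported here.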

Additional observations from a re-analysis of the deposited data

How the results depend on the processing

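Of the 29 Rab genes that passed the test, 17 passed in the same direction under each of the 14 alternatives, among them Rab-20, Rab-21, Rab-31, Rab-24, Rab-4A, Rab-37 and both Rab-11B genes. Fewer rises were called with library totals (9 of the 16) and with limma on FPKM (10 with either constant added), and fewer over 2-fold with limma (4 of the 8 with 1 added, 5 with 0.1). The median log2 fold change of the Rab genes changed sign from 0.15 to -0.18 with library totals, -0.04 with upper quartile factors, and -0.13 and -0.19 with limma, and ranged from 0.09 to 0.27 with a library left out. Over the same refits rises ranged from 13 to 15 and falls from 9 to 12, and over 2-fold from 8 to 10 and from 6 to 10. DESeq2 gave 16 and 13, and members of at most 1000 bases 14 and 11. Of the regulators, with library totals 7 GEFs rose and 15 fell, 5 GAPs rose and 28 effectors fell. With limma 7 GEFs rose and 14 fell, 5 GAPs rose, and 7 or 8 effectors rose, with either constant for the first 3 counts. With a library left out, effectors that fell ranged from 11 to 21 and prenylation genes that fell from 2 to 4. Under library totals, upper quartile factors, and limma with 1 and 0.1 added, the median of all tested genes was -0.37, -0.22, -0.24 and -0.36, against -0.03. In the same order 2024, 2599, 1962 and 1970 of all 14357 tested genes rose, against 3398 in the main fit. Falls numbered 4514, 3902, 4754 and 4700, against 3113. With a library left out, 2598 to 3329 of all tested genes rose and 2219 to 2970 fell.

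The sign depended on the scaling or on 1 library in the members below, none of which passed. With library totals, upper quartile factors, and limma with 1 and 0.1 added, the log2 fold change was -0.20, -0.05, -0.19 and -0.20 for Rab-2A, -0.19, -0.05, -0.18 and -0.20 for Rab-7A fugu_GLEAN_10010428, -0.26, -0.11, -0.24 and -0.25 for Rab-8A fugu_GLEAN_10010150, -0.31, -0.14, -0.33 and -0.36 for Rab-8A fugu_GLEAN_10013587, and -0.18, -0.04, -0.17 and -0.18 for Rab-14 fugu_GLEAN_10002338. With totals and the limma settings it was -0.08, -0.10 and -0.11 for Rab-9A fugu_GLEAN_10003428 and -0.09, -0.02 and -0.01 for Rab-10 fugu_GLEAN_10004115, and with limma -0.02 and -0.17 for Rab-10 fugu_GLEAN_10004116. With a library left out these ranged from -0.01 to 0.23 and from -0.41 to 0.26 for the Rab-8A genes, from -0.05 to 0.05 for Rab-14 fugu_GLEAN_10012421, from -0.03 to 0.49 for Rab-9A fugu_GLEAN_10003428, and from -0.02 to 0.62 and -0.24 to 0.74 for the Rab-10 models. No paired analysis was possible because the labels number CG libraries 1 to 3 and EG libraries a to c.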
